A study of Mus musculus with 12 samples.

Results

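The genes described here encode the nuclear subunits of respiratory complex I, the NADH:ubiquinone oxidoreductase of the inner mitochondrial membrane. They were taken as every gene whose symbol is Nduf followed by a, ab, b, c, s or v and a number, which gave 37 of the 23230 genes in the table. All 37 were among the 11502 genes kept for testing, which reached at least 1 FPKM in at least 1 library. FPKM counts sequenced fragments relative to the length of the transcript and the size of the library. The core subunits encoded in mitochondrial DNA were not analysed here.

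The data are RNA-seq profiles of mouse oocytes of a C57BL6/ICR hybrid strain, wild type (WT) or lacking both Zar1 and Zar2 (Zar1/2-null). These genes encode oocyte proteins that the study found to bind mRNAs. Each of the 6 groups held 2 libraries of 10 pooled oocytes, and no library received a treatment beyond the hormones used for collection. Growing oocytes came from females labelled as 13.5 days old. Fully grown germinal vesicle (GV) oocytes came from 21-day-old females 44 h after PMSG, a gonadotropin that stimulates follicle growth. Ovulated oocytes, labelled metaphase II (MII), were collected 16 h after hCG, the hormone that triggers ovulation. The null alleles were made with CRISPR/Cas9, Zar1 by a small deletion that brings in a stop codon and Zar2 by a deletion in exon 1 that shifts the reading frame. The imaging in the study placed ovulated null oocytes in metaphase or telophase of the first meiotic division, so genotype and meiotic stage cannot be told apart in the group labelled MII. The study also held maturing oocytes in meiosis I with nocodazole. By RT-qPCR it found the degradation of selected mRNAs unaffected, a control that these libraries do not include. Each library pools oocytes, so fewer oocytes holding a transcript and less of it in each oocyte cannot be told apart.

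The deposited values are FPKM that the authors had scaled to an ERCC spike-in, synthetic RNA of which each lysate got the same amount. Since the libraries were primed with oligo-dT, a level then follows RNA with a poly(A) tail per oocyte and not only its share of the library. It does so most directly between libraries of the same replicate number. Where a level is lower, loss of the RNA and shortening of its tail cannot be told apart. In the study's poly(A) tail assay, tails of selected mRNAs lengthened during maturation of WT oocytes but not of null oocytes. The table holds no counts, so the counting error behind a value is not known. Zar2 is listed as Zar1l, with 504 to 644 FPKM in WT growing and GV libraries and 13.2 to 20.9 FPKM in the null ones. Zar1 was still listed at 190 and 194 FPKM in null MII oocytes, and since its allele is a small deletion this level does not check the label. The 11 oocyte markers were all at 1 FPKM or more in each group. The 15 granulosa and cumulus markers summed to at most 33.9 FPKM in any library and to 5.22 to 8.49 FPKM in the MII libraries, and the 5 blood cell markers to at most 3.07 FPKM.

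Complex I takes electrons from NADH in its peripheral arm, which reaches into the matrix, passes them along iron-sulfur clusters to ubiquinone, and pumps protons through its membrane arm. The core subunits carry out this chemistry, and the accessory subunits surround and stabilise them. Oocytes depend on mitochondrial respiration for ATP. The fully grown oocyte is transcriptionally silent until after fertilisation. During meiotic maturation its transcripts can thus only be kept, changed in the length of the poly(A) tail, or lost. The 37 members were grouped as 7 core subunits, 9 accessory subunits of the peripheral arm, 9 of the proximal membrane arm, 10 of the distal membrane arm (the Ndufb genes), the acyl carrier protein Ndufab1, and Ndufa4, which is now placed with cytochrome c oxidase.

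Libraries were primed with oligo-dT, so a read is obtained only from an RNA with a poly(A) tail, and the end of the transcript is shown for members that kept most of their GV level in null MII oocytes and for members that lost most of it. Each line gives the last 30 bases of the 3′ UTR, in the last exon of the GENCODE M1 transcript of the mm9 build, 5′ to 3′ on the gene's strand, with the poly(A) signal AATAAA or ATTAAA in capitals. The first 4 kept 76.8 to 86.2% of the GV level, and the other 4 kept 1.08 to 4.93%.
Ndufa1 (chrX:34727583-34727612, minus strand): tgcatAATAAAaaattttaaaaaatctaaa
Ndufa4 (chr6:11850373-11850402, minus strand): ttacactgatgAATAAAtctctgaaacttg
Ndufa7 (chr17:33975232-33975261, plus strand): caaatatatagaattccacattatttccaa
Ndufv3 (chr17:31668237-31668266, plus strand): tccttgcctgtgagAATAAAaggcagagtc
Ndufa9 (chr6:126771881-126771910, minus strand): ttttctATTAAAtaactatatataatatcg
Ndufb7 (chr8:86095496-86095525, plus strand): gaAATAAAagctttgggtcacctgcctaaa
Ndufs3 (chr2:90734793-90734822, minus strand): ttgtctgtaAATAAActccaatggacattc
Ndufs8 (chr19:3908870-3908899, minus strand): ccctttagcccataaagaaactatgatccc
AATAAA and ends without either signal occurred in both printed sets, and ATTAAA in the second set alone (Ndufa9). A 30-base end was taken for 36 members, with Ndufa2 left out by rule. Of the 36, 17 held AATAAA, 7 held ATTAAA alone and 12 held neither. Of the 15 members above 50% in null oocytes 10 held a signal, 7 of them AATAAA and 3 ATTAAA, and of the 9 below 10% there were 3 and 2. In the last 40 bases of the transcript, 29 of 37 members (78.4%) had a signal, against 70.3% of the 10765 kept genes with a coding transcript. TTTTAT or TTTTAAT, the letters of the cytoplasmic polyadenylation element on the transcript strand, stood in the last 100 bases of 3 members (Ndufa2, Ndufc2 and Ndufs4; 8.11%) and of 18.1% of kept genes. A match is a description of the letters in an annotated end and no test was made of it.

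In growing and GV oocytes of both genotypes the members were abundant. Their group means ranged from 16.0 FPKM (Ndufs1) to 576 FPKM (Ndufa4) in WT growing oocytes, with a median of 162 FPKM, and from 10.2 FPKM (Ndufs1) to 578 FPKM (Ndufa2) in WT GV oocytes, with a median of 157 FPKM. The null medians were 129 and 133 FPKM. FPKM is a level per length, so these values can be compared between genes, and the core subunits were the lowest of the larger groups, with a median of 71.4 FPKM in WT growing oocytes against 180 FPKM for the peripheral arm accessory subunits and 225 FPKM for the distal membrane arm. Replicates were close, with a median ratio between the 2 libraries of a group from 1.07 in WT growing to 1.28 in null MII oocytes, and no member at 1 FPKM or more in both libraries differed over 3-fold between them.

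**Figure D1:**
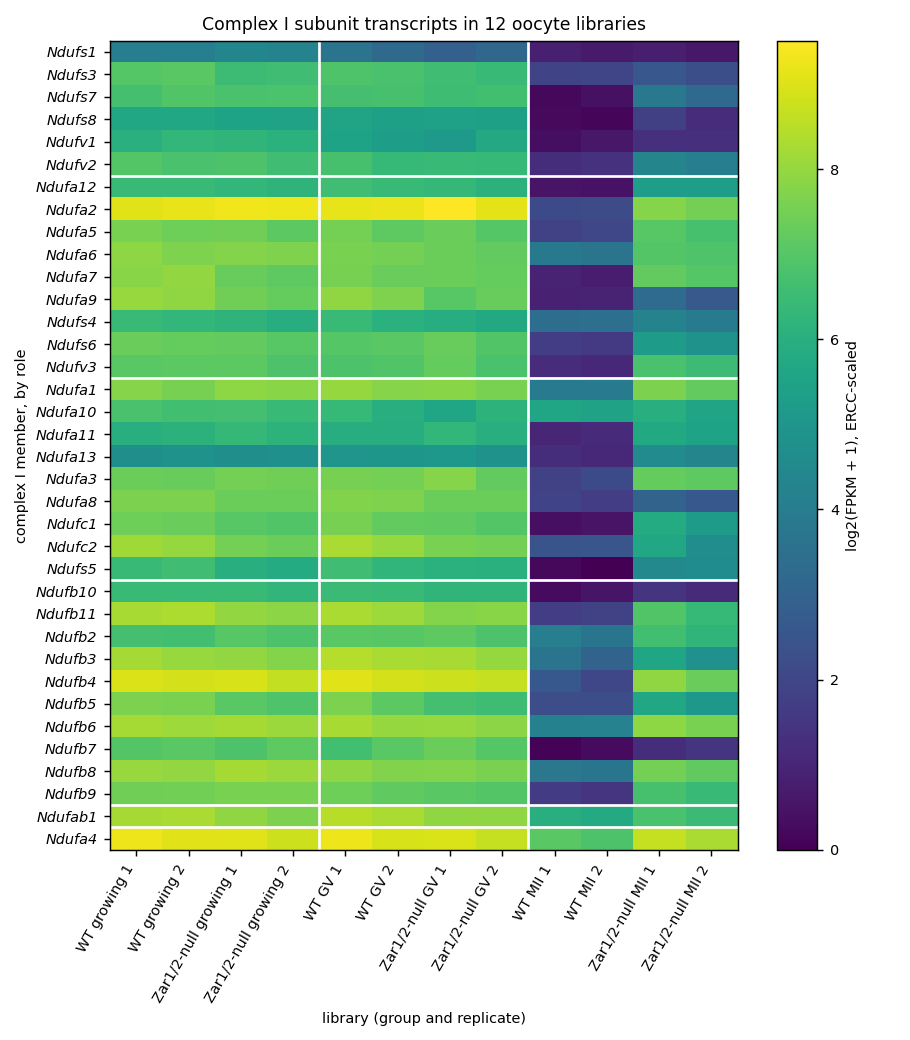
Level of 36 complex I members in each of the 12 libraries, as log2(FPKM + 1) in colour, with members in role order (core, peripheral arm, proximal membrane arm, distal membrane arm, Ndufab1, Ndufa4) and libraries as columns. Each member is lower in both WT MII libraries than in its own WT GV libraries, with Ndufa4, Ndufab1 and Ndufa10 the highest there, and the null MII libraries are mixed, where 15 members stood above 50% of their GV level and 8 of those drawn below 10%.

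The comparison of null with WT growing oocytes asks whether the members already differed while oocytes still accumulate RNA. They differed little. By limma on log2(FPKM + 1) with Benjamini-Hochberg adjustment over all genes tested (threshold 0.05), 5 of 37 members fell and 0 rose. Among all genes 24.4% were called lower and 10.6% higher, so the members' share of 13.5% lower lay under the background, and the median log2 fold change was -0.15 over the members and -0.16 over all genes. The 5 were Ndufa7, Ndufa9, Ndufb5, Ndufs3 and Ndufs5. Ndufa7, an accessory subunit of the peripheral arm, was at 224 and 250 FPKM in WT and at 155 and 142 FPKM in null libraries, without overlap (log2 fold change -0.67, SE 0.15, limma adjusted p = 0.00635). Ndufa9, a peripheral arm subunit of the short-chain dehydrogenase fold, was at 259 and 244 FPKM in WT and 172 and 151 FPKM in null libraries (log2 fold change -0.64, SE 0.21, limma adjusted p = 0.033). At the other end, Ndufb2, a small distal membrane arm subunit, was at 105 and 98.3 FPKM in WT and 130 and 116 FPKM in null libraries, a log2 fold change of 0.27 that did not pass the test. No member was over 3-fold apart, but among all genes too only 0.982% were over 3-fold higher and 3.54% lower. The direction of these calls rests on the spike-in: without ERCC scaling 0 members were called lower and 4 higher, and with median scaling 0 and 5. Leaving out WT growing replicate 2 or null growing replicate 2 left 0 calls, and without WT growing replicate 1 or null growing replicate 1 there were 2 and 3.

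GV oocytes gave a like picture. Here 4 members fell and 0 rose in null oocytes, against 40.6% of all genes called lower and 2.83% higher. The 4 were Ndufa9, Ndufab1, Ndufb5 and Ndufs1, of which Ndufa9 and Ndufb5 were also called in growing oocytes. Ndufb5, a distal membrane arm subunit, was at 197 and 138 FPKM in WT and at 103 and 94.3 FPKM in null GV oocytes, and its groups did not overlap (log2 fold change -0.74, SE 0.22, limma adjusted p = 0.0173). Ndufab1, the acyl carrier protein that also serves mitochondrial fatty acid synthesis, was at 360 and 315 FPKM in WT and at 240 and 243 FPKM in null oocytes (log2 fold change -0.48, SE 0.17, limma adjusted p = 0.0406). Ndufa11 and Ndufb7, at log2 fold changes of 0.24 and 0.35, were the highest and did not pass. The median of the members was -0.24 and that of all genes -0.38, both as log2 fold change. Without ERCC scaling 0 members were called lower and 3 higher, with median scaling 0 and 7. No call was left in a fit of the GV libraries alone or without WT GV replicate 1, and 2 were left without either WT growing library or either null GV library.

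From the growing to the GV stage the members' levels changed little. In WT oocytes 2 members were called lower (Ndufs1 and Ndufv1) and 0 higher, where 28.7% of all genes were called lower and 2.77% higher. In null oocytes 7 were called lower, Ndufa6, Ndufa10, Ndufb8, Ndufb9, Ndufs1 and Ndufv1 among them, and 0 higher, where the background was 55.9% lower and 4.76% higher. Ndufs1, the iron-sulfur protein that is the largest core subunit, went from 15.8 and 16.3 to 11.6 and 8.83 FPKM in WT libraries and from 19.4 and 17.9 to 6.59 and 7.96 FPKM in null libraries. Its log2 fold changes were -0.61 (SE 0.16, limma adjusted p = 0.0157) and -1.25 (SE 0.16, limma adjusted p = 7.81e-05). Without ERCC scaling the counts turned, to 0 lower and 3 higher in WT and 1 lower and 18 higher in null oocytes. In WT oocytes 0 calls were left without WT growing replicate 2 or WT GV replicate 2 and 1 without WT growing replicate 1, and 5 were made without either null GV library. In null oocytes 2 calls were left without null growing replicate 1 and 4 without null GV replicate 1.

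Ovulated oocytes differed between the genotypes in nearly every member. At the MII label 35 of 37 members were higher in null oocytes and 0 lower by limma with Benjamini-Hochberg adjustment, while 21.5% of all genes were called higher and 10.3% lower. The median log2 fold change was 3.17 over the members and 0.06 over all genes tested. In 35 members both null libraries lay above both WT libraries, against 43.5% of all genes. Over 3-fold higher were 25 members, with group means under 1 FPKM set to 1 FPKM, against 7.49% of all genes. The 2 members that did not pass were Ndufa10 and Ndufs1. Without ERCC scaling or with median scaling 34 members were called higher, with any 1 library left out 32 to 35, and the groups' own libraries alone gave 34. The smallest p an exact permutation test of 2 libraries against 2 can reach is 0.333, and each call rests on the spread pooled over the 6 groups.

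**Figure D2:**
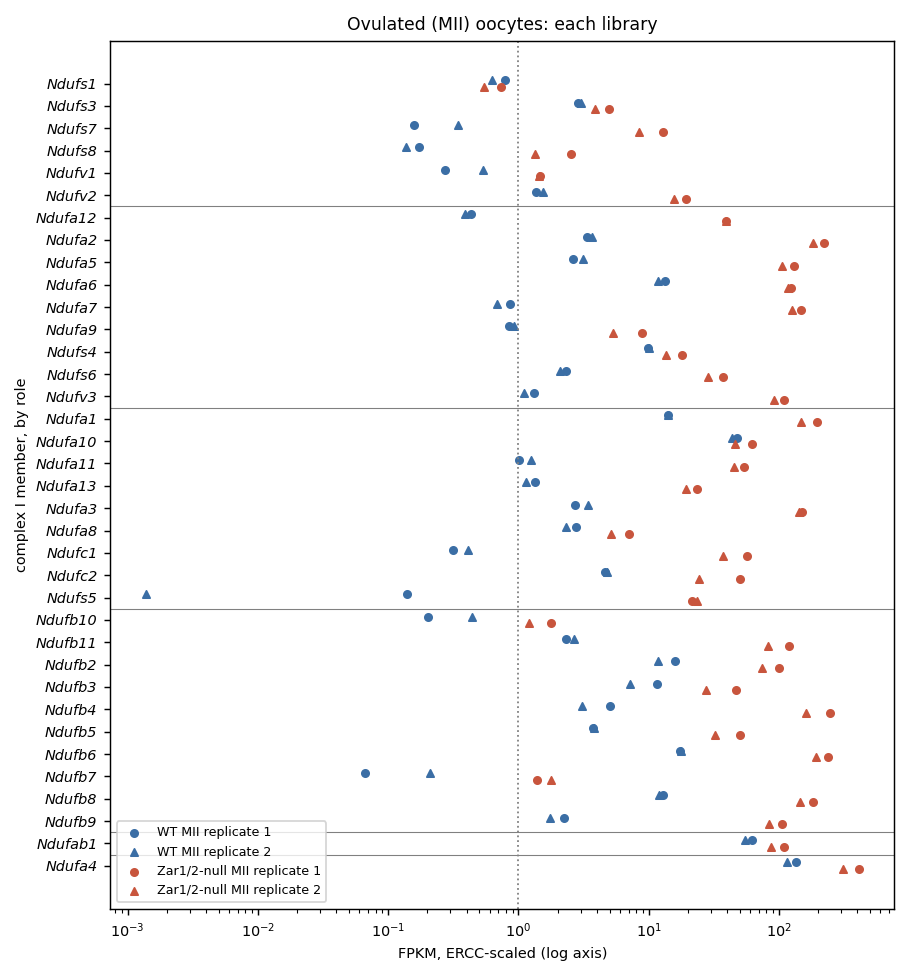
FPKM of 36 members in the 2 WT and the 2 null MII libraries, on a log axis, with a dotted line at 1 FPKM. Red null points lie to the right of blue WT points in 34 of them, and 11 have a WT mean under 1 FPKM.

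All 9 peripheral arm accessory subunits were called higher. On the log2(FPKM + 1) scale the 3 highest log2 fold changes of all members, those of Ndufa7, Ndufv3 and Ndufa2, stood in this group, while with a pseudocount of 0.1 FPKM they were those of Ndufa7 (7.29), Ndufs5 (7.18) and Ndufc1 (6.65), the last 2 from the proximal membrane arm. Ndufa7 was at 0.866 and 0.685 FPKM in WT and at 148 and 126 FPKM in null MII oocytes, at least 137-fold higher against a floor of 1 FPKM (log2 fold change 6.28, SE 0.15, limma adjusted p = 9.75e-10). Ndufv3, a small subunit beside the NADH-binding site, was at 1.32 and 1.11 FPKM in WT and at 109 and 91.7 FPKM in null libraries, 82.7-fold higher (log2 fold change 5.51, SE 0.18, limma adjusted p = 1.63e-09). Ndufa2, a subunit of thioredoxin fold, was at 3.37 and 3.68 FPKM in WT and at 220 and 182 FPKM in null libraries, 57.0-fold higher (log2 fold change 5.47, SE 0.17, limma adjusted p = 1.26e-09). In null oocytes these means were 86.2%, 76.8% and 31.3% of the GV level, and in WT oocytes they were 0.442%, 1.03% and 0.609%. The smallest difference of the group was that of Ndufs4, a subunit that stabilises the NADH-oxidising part, at 9.91 and 10.0 FPKM in WT and 17.9 and 13.7 FPKM in null libraries (log2 fold change 0.60, SE 0.18, limma adjusted p = 0.024). Ndufa5, Ndufa6, Ndufa9, Ndufa12 and Ndufs6 lay between, with null levels from 7.11 FPKM (Ndufa9) to 120 FPKM (Ndufa6).

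In the proximal membrane arm 8 of 9 accessory subunits were higher. Ndufc1, a short membrane subunit, was at 0.313 and 0.412 FPKM in WT and 56.9 and 37.4 FPKM in null MII oocytes, at least 47.1-fold higher (log2 fold change 5.11, SE 0.20, limma adjusted p = 6.72e-09). Ndufc2, also of the proximal membrane arm, was at 4.59 and 4.79 FPKM in WT but at 49.97 and 24.5 FPKM in null oocytes, and these 2 null libraries were 2.04-fold apart, the widest replicate ratio among members at 1 FPKM or more in both libraries of a group. Ndufa11 was at 1.01 and 1.24 FPKM in WT and 54.2 and 44.8 FPKM in null libraries, and Ndufa1, a membrane subunit needed for assembly, at 13.9 and 14.0 against 197 and 148 FPKM. Their log2 fold changes were 4.57 (SE 0.16, limma adjusted p = 2.94e-09) and 3.52 (SE 0.18, limma adjusted p = 4.9e-08). Ndufa10, a subunit related to nucleoside kinases, was the exception, at 47.4 and 43.2 FPKM in WT and 62.4 and 46.1 FPKM in null libraries, so the lower null library lay under the higher WT library (log2 fold change 0.24, SE 0.21, limma adjusted p = 0.456). Ndufa3, Ndufa8, Ndufa13 and Ndufs5 were called higher, with Ndufs5 listed at 0.139 and 0.00138 FPKM in WT and at 21.5 and 23.4 FPKM in null libraries.

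All 10 distal membrane arm subunits were higher. Ndufb2 was at 15.9 and 11.8 FPKM in WT and 99.2 and 74.2 FPKM in null MII oocytes (log2 fold change 2.56, SE 0.19, limma adjusted p = 1.12e-06), and Ndufb5 at 3.74 and 3.77 against 49.8 and 32.3 FPKM (log2 fold change 3.11, SE 0.22, limma adjusted p = 6.27e-07). Ndufb7, which faces the intermembrane space, differed at low levels, 0.0665 and 0.211 FPKM in WT and 1.39 and 1.79 FPKM in null libraries, at least 1.59-fold higher. The null group means of the 10 reached from 1.48 FPKM (Ndufb10) to 216 FPKM (Ndufb6), and those of WT from 0.139 to 17.5 FPKM. Ndufab1 was at 62.5 and 55.2 FPKM in WT and 109 and 87.2 FPKM in null libraries, 1.67-fold higher, and Ndufa4 at 135 and 115 against 410 and 312 FPKM, 2.89-fold higher. Both kept the highest WT levels of all members at this label.

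The core subunits were the low end of the null MII libraries. Of the 7, 6 were called higher, but their median log2 fold change was 1.31, against 3.46 over the other 30 members. The size of that gap depends on the pseudocount, since 5 core subunits had a WT mean under 1 FPKM, and with a pseudocount of 0.1 FPKM the medians were 2.61 and 3.66. Ndufv2, an iron-sulfur subunit that works beside the NADH-oxidising site, was at 1.36 and 1.53 FPKM in WT and 19.2 and 15.6 FPKM in null oocytes, 12.04-fold higher (log2 fold change 2.91, SE 0.18, limma adjusted p = 2.17e-07). Ndufs7, which hands electrons to ubiquinone, was at 0.158 and 0.344 FPKM in WT and 12.9 and 8.41 FPKM in null libraries, at least 10.7-fold higher (log2 fold change 3.20, SE 0.19, limma adjusted p = 1.52e-07). These 2 stood clear of the remaining core genes, which reached at most 4.94 FPKM in any null MII library.

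Among the remaining core genes, Ndufs8, an iron-sulfur subunit, was at 0.173 and 0.137 FPKM in WT and 2.51 and 1.33 FPKM in null libraries, and Ndufv1, which binds FMN and oxidises NADH, at 0.272 and 0.532 against 1.45 and 1.44 FPKM. Both genes were under 1 FPKM in both WT libraries and above it in both null libraries, with log2 fold changes of 1.31 and 0.81 on a scale that understates the change of low genes. Ndufs3, a core subunit without a cluster, was at 2.88 and 3.01 FPKM in WT and 4.94 and 3.85 FPKM in null libraries (log2 fold change 0.44, SE 0.14, limma adjusted p = 0.0364), a call that was lost without ERCC scaling, with median scaling and in the MII libraries alone. Ndufs1 was at 0.784 and 0.625 FPKM in WT and 0.734 and 0.544 FPKM in null libraries, which overlap (log2 fold change -0.06, SE 0.16, limma adjusted p = 0.86).

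The same libraries were then read along maturation, from GV to MII, within each genotype. In WT oocytes all 37 members fell by limma, as did 93.4% of all genes (0.104% were called higher), so the call alone does not set the members apart. The median log2 fold change was -5.28 over the members and -1.28 over all genes tested. Over the 5966 genes averaging 5 FPKM or more, where the pseudocount weighs less, it was -2.03. Over 10-fold lower were 32 members, against 15.7% of all genes. The MII level was 1.62% of the GV level at the median of the members, from 0.0825% (Ndufs5) to 63.5% (Ndufa10), and 18.8% at the median of the 4914 genes with at least 10 FPKM in WT GV oocytes. Without ERCC scaling these medians were 5.50% and 63.6%, and the members ranged from 0.282% to 216%. Ndufa2 had the lowest log2 fold change (-7.00), from 564 and 593 FPKM at GV to 3.37 and 3.68 FPKM at MII. The members that did not pass the 10-fold rule were Ndufa4, Ndufa10, Ndufab1, Ndufb2 and Ndufs4. Ndufa10 was the 1 member whose direction depended on the scaling, with a log2 fold change of -0.63 that turned to 1.10 without ERCC scaling and 1.45 with median scaling.

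In null oocytes 28 members fell from GV to MII and 0 rose, against 68.7% of all genes lower and 0.209% higher. The median log2 fold change was -1.30 over the members and -0.72 over all genes tested. Over the 5966 genes averaging 5 FPKM or more it was -1.19, near that of the members. Over 10-fold lower were 8 members, Ndufa8, Ndufa9, Ndufb7, Ndufb10, Ndufs3, Ndufs8 and Ndufv1 among them, against 6.66% of all genes. The MII level was 40.6% of the GV level at the median of the members, and 37.7% at the median of 4885 genes chosen by the same WT GV level. Without ERCC scaling these medians were 84.4% and 78.3%. The 9 members that did not pass were Ndufa1, Ndufa3, Ndufa4, Ndufa5, Ndufa7, Ndufa10, Ndufb6, Ndufb8 and Ndufv3. Scaling decides the direction here, since without ERCC scaling 17 members were called lower and 14 higher, and with median scaling 15 and 15. Of the members whose alternatives were followed gene by gene, Ndufa1, Ndufa4, Ndufa7, Ndufa10, Ndufa11, Ndufb2 and Ndufv3 had log2 fold changes from 0.48 to 0.94 without ERCC scaling.

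The spread among members was wide in null oocytes. At most 92.2% of the GV level was left (Ndufa10), with 87.7% for Ndufb6 and 86.2% for Ndufa7, and at least 1.08% (Ndufb7), with 2.03% for Ndufb10 and 3.31% for Ndufv1. By role the median was 5.25% for the core, 53.7% for the peripheral arm accessory subunits, 69.0% for the proximal and 47.1% for the distal membrane arm. Under 10% lay 5 of the 7 core subunits and 4 of the other 30 members (Ndufa8, Ndufa9, Ndufb7 and Ndufb10), while all 15 members above 50% were outside the core. Without ERCC scaling 2 of 7 core subunits and 3 of the other 30 members lay under 10%, 23 members lay above 50%, and the medians were 11.1% for the core and 105% for the others. In WT oocytes the core median was 0.969% and that of the other members 1.68%, or 3.28% and 5.65% without ERCC scaling. These percentages are ratios of means of 2 libraries, given as a description, and no test between roles was made.

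**Figure D3:**
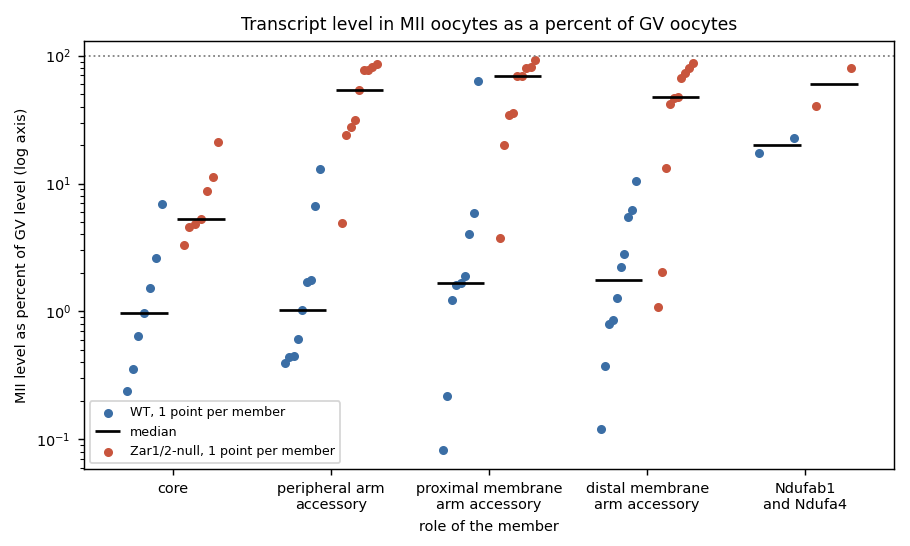
MII level as a percent of the GV level for each member, on a log axis, by role and genotype, with black lines at the medians and a dotted line at 100%. WT medians of the 4 larger roles lie between 0.969% and 1.76%, null core members have a median of 5.25%, and null accessory members reach 92.2%.

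Whether the fall from GV to MII differed between the genotypes was tested as an interaction in the same limma fit. The difference was positive and passed in 34 members and was negative in 0, against 33.9% of all genes called positive and 0.643% negative, and the median difference was 3.32 over the members and 0.48 over all genes, in log2 units. Ndufa10, Ndufs1 and Ndufv1 did not pass. With 1 library left out 31 to 34 members passed, without ERCC scaling 31 and with median scaling 30. This test shares all 4 MII libraries with the comparison of genotypes at MII and is no separate evidence.

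Shares of summed FPKM do not move with a factor applied to a whole library. The 37 members together made up 1.10% and 1.08% of the summed FPKM in WT growing libraries, 1.23% and 1.31% in WT GV libraries and 0.299% and 0.282% in WT MII libraries. In null libraries the shares were 1.14% and 1.17%, 1.53% and 1.29%, and 1.48% and 1.38%. WT MII libraries were thus below all others, while null MII libraries lay within the range of the null GV libraries. The core subunits alone took 0.0833% and 0.0884% in WT GV, 0.00461% and 0.00535% in WT MII, 0.0960% and 0.09995% in null GV and 0.0210% and 0.0190% in null MII libraries, so their share was below the GV range in both genotypes.

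**Figure D4:**
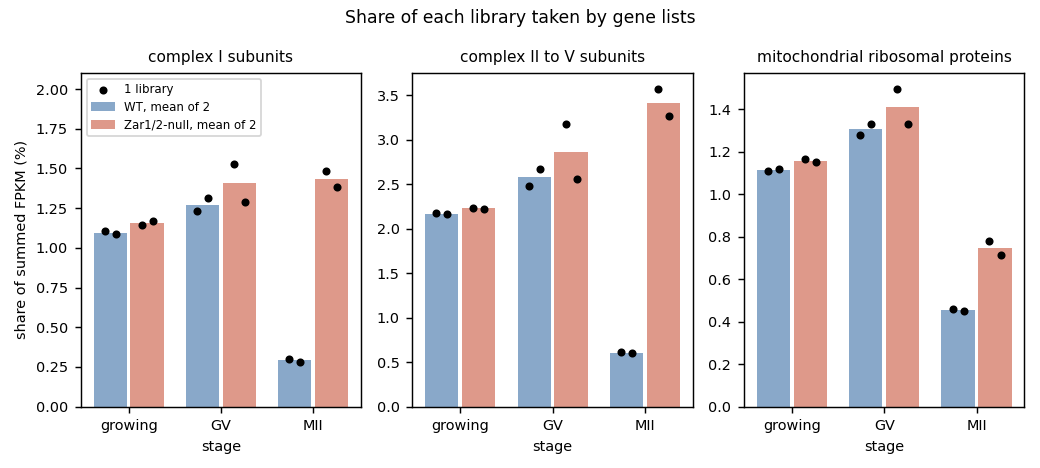
Percent of the summed FPKM of each library taken by the complex I members, by complex II to V subunits and by mitochondrial ribosomal proteins, with bars at the mean of 2 libraries and a point per library. At MII the complex I share is 0.290% in WT and 1.43% in null oocytes, and the mitochondrial ribosomal share 0.455% and 0.747%.

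Other genes of the pathway were counted in the same fits, to be read against the 21.5% of all genes called higher and 10.3% lower at MII. Of the 39 listed subunits of complexes II to V, which carry electrons on to oxygen and make ATP, 31 were called higher in null MII oocytes and 0 lower, with a median log2 fold change of 3.16. Their share of summed FPKM was 0.606% ± 0.00645 in WT and 3.41% ± 0.217 in null MII oocytes (SD, n = 2). Of the complex I assembly factors listed, only 11 were found under their symbol, and 10 of these were tested. Of the 10, 2 were called higher (20%, near the share of all genes) and 0 lower, with a median of 0.04, near that of all genes. Of the 75 mitochondrial ribosomal proteins 38 were called higher and 4 lower, with a median of 0.63. The subunits of the respiratory complexes had larger median differences than the factors that assemble complex I or the ribosome that translates the mitochondrial genome, a difference between lists for which no test was made.

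Transcript length moved with the difference at MII. The coding transcript of a member was 351 to 2661 nt long in the mm9 annotation, with a median of 875 nt, against 2524 nt for the kept genes, and the median was 1540 nt for the core. Among 257 other genes with at least 10 FPKM in WT GV oocytes and a transcript under 700 nt, 76.3% were called higher in null MII oocytes and the median log2 fold change was 1.84, while 1373 other genes of 3000 nt or more had 13.8% and -0.13. The 14 members under 700 nt had a median of 3.53, the 8 members from 700 to 1000 nt 2.53 (other genes 0.94), the 7 from 1000 to 1500 nt 3.11 (other genes 0.41) and the 8 from 1500 to 3000 nt 1.08 (other genes 0.17). In each range the members' median was above that of the other genes of the same length. The other genes were not matched on level, and the members' median in WT GV oocytes was 157 FPKM. A higher WT GV level went with a larger difference at MII, with a Spearman's rho of 0.35 across the 37 members and 0.18 across 4914 genes with at least 10 FPKM there. Members did not keep more of the GV level in null oocytes in every range. From 700 to 1000 nt the null medians were 12.2% against 39.3% of other genes, and from 1500 to 3000 nt 24.4% against 34.5%. The WT medians there were 0.826% against 6.56%, and 1.71% against 19.6%. Under 700 nt and from 1000 to 1500 nt the members' null medians were the higher, 75.0% against 51.9% and 40.6% against 26.5%. Across the 37 members Spearman's rho between length and the log2 fold change was -0.35, across the 30 outside the core -0.18, and across 4696 genes at that GV level -0.44. Genes share the libraries and are no independent replicates. The parts of length and of WT GV level in the members' difference were not tested.

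**Figure D5:**
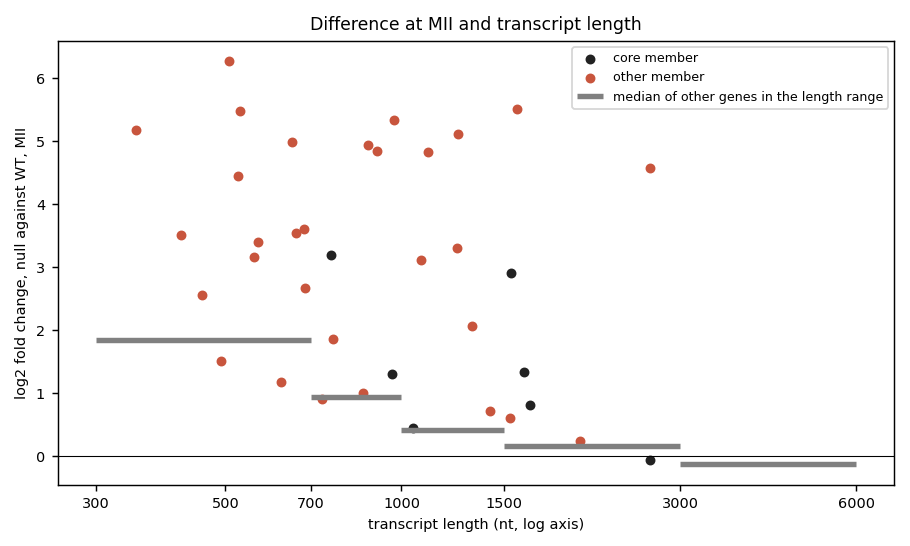
Log2 fold change of null against WT MII oocytes for each member against the length of its coding transcript in nt, on a log axis, with core members in black and grey lines at the median of other genes with at least 10 FPKM in WT GV oocytes in each length range. Grey medians step down from 1.84 under 700 nt to -0.13 at 3000 nt or more. The members' median is above the grey line in every range that holds members, and the other genes are not matched on level.

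Exons of 8 members overlap exons of another gene, and since Smart-seq2 does not mark the strand, reads of such a pair cannot be told apart. They are Ndufa2 (with Tmco6), Ndufa13 (Tssk6), Ndufb2 (Adck2 and Braf), Ndufb5 (Mrpl47), Ndufb6, Ndufb11 (Rbm10), Ndufs1 and Ndufs3 (Kbtbd4). Of the 29 members without such an overlap 28 were called higher at MII. The authors kept uniquely mapped reads, so a member with a near-identical copy elsewhere in the genome may be read too low in all groups.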

How the data were processed

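Oocytes were lysed with ERCC RNA and oligo-dT primers, amplified by Smart-seq2 and sequenced as 150 bp pairs. The authors trimmed reads to 50 bp and used TopHat2 2.1.1, uniquely mapped reads, mm9 and Cufflinks 2.2.1 (per the submitters' processing notes and the methods). The authors deposited 1 table of FPKM values multiplied by an ERCC factor per library. Dividing by the recovered factor (0.697 to 0.836 in WT GV, 0.533 and 0.583 in null GV, 0.225 and 0.228 in WT MII, 0.283 and 0.252 in null MII, 0.862 and 0.779 in null growing, 1 in WT growing libraries) returned 100% of values to 6 digits. Values of exactly 0, which can be failed estimates, made up 33.5% of a library on average.

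Groups came from the sample titles. The methods of the study give a younger age for the growing oocytes than the labels. The fit used the genes that reached 1 FPKM or more in any library, with limma 3.58.1 (R 4.3.3) on log2(FPKM + 1), 1 mean per group over 12 libraries, eBayes with a trend, two-sided, Benjamini-Hochberg over 11502 genes. The pseudocount makes fold changes of low genes smaller than they were. No count test was run, since the table holds no counts. p-values measure the spread between these libraries, which may be technical. On simulated data for the MII comparison, 97% of 200 genes changed 4-fold among 11502 were recovered, with 5 unchanged genes called. The changed genes were drawn from those above 1 FPKM in WT MII oocytes, where 12 members are not. Noise was normal on the log2 scale and the spread was shuffled between genes. These rates hold for that setting and do not carry over to low members. Folds used means of at least 1 FPKM, with 3-fold between genotypes and 10-fold from GV to MII after the study's methods. The table had 0 columns without a sample. All 37 members were counted, 1 of which is not reported here by name or drawn by name, and named with values are the other core subunits, Ndufab1, Ndufa4 and the 3 highest and 3 lowest of each comparison of genotypes and of WT MII with GV. Other genes named were chosen after their values were seen. Lengths and ends came from 1 GENCODE M1 coding transcript per symbol (the longest coding sequence), found for 93.6% of kept genes, and 36 of 36 printed ends were equal to the mm9 genome. The authors' gene models were from another source. The members, roles, lists and alternatives were chosen with earlier results of these data known. Lists of oocyte, granulosa and cumulus, and blood cell markers, complex I assembly factors, complex II to V subunits and mitochondrial ribosomal proteins were examined. Alternatives were no ERCC scaling, median scaling, a pseudocount or floor of 0.1 FPKM, a mean of at least 5 FPKM, no filter, a replicate block, the libraries of the groups compared alone, eBayes without a trend, folds held by every library, and each library left out.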

Additional observations from a re-analysis of the deposited data

Results flagged for a closer look

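The change from GV to MII differed between the genotypes by the interaction test (limma on log2(FPKM + 1), Benjamini-Hochberg adjusted, 2 libraries per group), in 34 of 37 members. Among all genes 33.9% were called positive and 0.643% negative. In log2 units, null minus WT, the differences among the peripheral arm accessory subunits were 6.42 for Ndufa7, 5.38 for Ndufv3, 5.34 for Ndufa2 and 2.69 for Ndufa9. In the membrane arm they were 5.44 for Ndufc1, 4.32 for Ndufa11, 3.69 for Ndufa1, 3.28 for Ndufc2, 3.85 for Ndufb5, 2.61 for Ndufb2 and 0.84 for Ndufb7. Core subunits had 3.34 for Ndufs7, 3.10 for Ndufv2, 1.38 for Ndufs8 and 0.76 for Ndufs3. The values for Ndufa4 and Ndufab1 were 1.80 and 1.20. Groups of 2 libraries are too small for a check of single outlying libraries.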

How the results depend on the processing

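The counts of members called at MII (35 higher), in WT maturation (37 lower) and in the difference between genotypes (34) stayed within 1.5 times under every alternative run. In growing oocytes 5 lower and 0 higher became 0 and 4 without ERCC scaling, 0 and 5 with median scaling, and 3 lower with a pseudocount of 0.1 FPKM or no filter. In GV oocytes 4 and 0 became 0 and 3 without ERCC scaling, 0 and 7 with median scaling, 1 lower with no filter and 0 lower in the GV libraries alone. From growing to GV, WT had 0 lower and 3 higher without ERCC scaling, 0 and 2 with median scaling, and 1 lower with a pseudocount of 0.1 FPKM, no filter or its own libraries alone. Null oocytes had 1 lower and 18 higher without ERCC scaling, 1 and 25 with median scaling, and 2 lower with their own libraries alone. From GV to MII, WT had 1 higher under either other scaling, and null oocytes 14 higher and 17 lower without ERCC scaling and 15 and 15 with median scaling, with 5 instead of 8 members over 10-fold lower without ERCC scaling. ERCC scaling moves all genes together: their median log2 fold change from GV to MII was -1.28 in WT and -0.72 in null oocytes, and -0.39 and -0.25 without it. The cause of the other changes was not tested.

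With each library left out, members called lower ranged from 0 to 7 in growing and 0 to 6 in GV oocytes, 0 to 5 (WT) and 2 to 7 (null) from growing to GV. Gene by gene, the alternatives were followed only for the genes named with values by the rule above. Among these, directions that turned in null maturation, without ERCC scaling and with median scaling, were log2 0.77 and 1.05 for Ndufa1, 0.94 and 1.22 for Ndufa10, 0.54 and 0.82 for Ndufa11, 0.73 and 1.02 for Ndufa4, 0.84 and 1.12 for Ndufa7, 0.48 and 0.76 for Ndufb2 and 0.69 and 0.97 for Ndufv3. Ndufab1 (0.0369) and Ndufb5 (0.0483) turned with median scaling only. Members outside that rule turned too. Without ERCC scaling the null MII mean was 165% of the GV mean for Ndufa3 and 182% for Ndufb6. In WT maturation Ndufa10 turned to 1.10 and 1.45. Of the 4 members called lower in null GV oocytes, Ndufab1 (0.0601) and Ndufs1 (0.05005) turned with median scaling. Uncalled members are not listed here, and small differences among them may have turned as well.

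Samples of a replicate number also share a spike-in reference. Both WT growing libraries have a factor of 1, although the study lists unequal ERCC shares for them. Replicates 1 and 2 may thus stand on different spike-in scales, which the main fit leaves in the spread. Over 15 pairs of groups the correlation of same-numbered deviations was -0.117 to 0.163 (median 0.0872, 4 over 0.1). With a replicate block 7 members were called lower in growing and 6 in GV oocytes, 35 higher at MII, 30 lower in null maturation and 34 in the difference between genotypes. The table gives no depth per gene, so levels under 1 FPKM, as for 12 members in WT MII oocytes, have unknown counting error.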

Other observations

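The counts of the pathway lists in the other comparisons are given beside the shares of all genes, which were 24.4% lower and 10.6% higher in null growing oocytes, 40.6% and 2.83% in null GV oocytes, and 68.7% lower from GV to MII in null oocytes. Of the 10 complex I assembly factors tested, 4 were called lower and 1 higher in null growing oocytes and 5 lower and 0 higher in null GV oocytes, by limma with Benjamini-Hochberg adjustment and the ERCC-scaled values. Of 39 complex II to V subunits 1 was lower and 2 higher in growing and 5 lower and 0 higher in GV oocytes. Of 75 mitochondrial ribosomal proteins 12 were lower and 4 higher in growing and 25 lower (33.3%) and 0 higher in GV oocytes. From GV to MII in null oocytes 9 of 10 assembly factors, 27 of 39 complex II to V subunits and 71 of 75 mitochondrial ribosomal proteins were called lower, with median log2 fold changes of -2.28, -1.20 and -2.12, against -0.72 over all genes. The median over all genes includes low genes, whose fold changes the pseudocount makes smaller. When only the 5966 genes averaging 5 FPKM or more were kept, the median was -1.19, near that of the complex II to V subunits. No test between lists was made.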
